A study of Mus musculus with 12 samples.

Results

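Myeloid cells enter, move within and leave tissues by reading chemical gradients with G-protein-coupled receptors. The 9 chemotactic receptor genes described here were chosen by symbol: Ccr1, Ccr2, Ccr3, Cx3cr1, Cxcr4, the atypical receptor gene Ccrl2, the formyl peptide receptor genes Fpr1 and Fpr2, and the sphingosine-1-phosphate receptor gene S1pr1. They are 9 of the 55401 genes listed in each of 2 count tables, and each symbol occurred once per table. They were chosen with earlier results of these data known. Bulk RNA-seq was performed on tumor-associated macrophages (TAMs) from subcutaneous B16-F10 tumors, a mouse melanoma line, grown in mice on the C57BL/6 background that the methods describe as 5 weeks old and, for the purchased and implanted mice, as female. The methods define TAMs as CD45+CD11b+Ly6C-Ly6G-F4/80+ cells, but the study also describes them as Ly6C+, so the Ly6C gate is uncertain. The stage experiment had 3 early-stage samples (Early, day 8) and 3 late-stage samples (Late, day 15), all from WT mice. The AMPK experiment had 3 WT samples (AMPKfl/fl) and 3 AMPK-KO samples (AMPKfl/flLyz2cre/cre), which the methods place on day 15. Both of those groups carried the floxed AMPK allele, and the genotype field of AMPK-KO replicates 2 and 3 names the cre as Lyz3 and Lyz4. Lyz2 drives cre in macrophages and also in monocytes and neutrophils, so the deletion is not specific to TAMs. The sources used here do not state whether animals were pooled or whether samples were separate animals, so the p-values measure the spread between these samples, which may be technical.

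Chemokine receptors couple mainly to inhibitory G proteins and steer cells toward their ligands. CCR2 brings inflammatory monocytes out of the bone marrow and into tissues, whereas CX3CR1 is high on patrolling monocytes and many resident macrophages. FPR1 and FPR2 detect bacterial and mitochondrial peptides and, for FPR2, serum amyloid A and annexin A1, and S1PR1 reads the sphingosine-1-phosphate gradient between tissue and blood.

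Library totals were 77155066 to 84470374 counts in the stage experiment and 71019494 to 81671067 in the AMPK experiment, and the lowest count of any receptor in any library was 202. The macrophage genes Adgre1 (F4/80) and Csf1r were at 810 to 1003 counts per 1000000 of the TMM-scaled library size (CPM) and 921 to 1344 CPM over all 12 samples. Prkaa1, the floxed gene, had 4535 to 5165 counts in WT and 3285 to 3467 in AMPK-KO, a log2 fold change of -0.60 ± 0.07 (SE; edgeR adjusted p = 2.26e-04), so its transcript was lower but not absent. Of the genes on the Y chromosome, Uty, Kdm5d, Eif2s3y and Ddx3y had a sum of 3435 to 4035 counts in each early-stage sample and 0 to 4 in each late-stage sample, so stage and the sex of the cells cannot be told apart. The same genes summed to 9229 to 12183 counts in the AMPK experiment. Xist, a transcript of female cells, was at 164 to 286 CPM in early-stage and 299 to 496 CPM in late-stage samples. Early-stage samples thus held both Xist and Y-linked transcripts. Xist was at 0.831 to 2.19 CPM in WT and 0 to 0.0997 CPM in AMPK-KO samples, although the methods name the implanted mice as female. It was called lower in AMPK-KO (log2 fold change -4.79 ± 0.72, edgeR adjusted p = 9.18e-04). The origin of these differences was not tested. Lyz2 was at 9.16 to 13.5 CPM in WT and AMPK-KO TAMs alike, against 1091 to 3008 CPM in the stage experiment. Levels are therefore not compared between the experiments. The Lyz2 transcript did not separate WT from AMPK-KO (log2 fold change 0.07, edgeR adjusted p = 0.830). Whether the WT samples carried the cre was not tested.

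By GENCODE M21 on GRCm38, 5 of the 9 genes are on chromosome 9. Ccr1 (ENSMUSG00000025804.5) lies at chr9:123962124-123968692 on the minus strand, Ccr3 (ENSMUSG00000035448.9) at chr9:124021972-124031689 on the plus strand and Ccr2 (ENSMUSG00000049103.14) at chr9:124101950-124113557 on the plus strand, with gaps of 53279 and 70260 bp between them. Ccrl2 (ENSMUSG00000043953.12) lies at chr9:111054486-111057519 and Cx3cr1 (ENSMUSG00000052336.7) at chr9:119901616-120069879, both on the minus strand. Fpr1 (ENSMUSG00000045551.7, chr17:17876471-17883940, minus) and Fpr2 (ENSMUSG00000052270.7, chr17:17887824-17893952, plus) stand head to head, 3883 bp apart. Cxcr4 (ENSMUSG00000045382.6) lies at chr1:128588199-128592293 and S1pr1 (ENSMUSG00000045092.8) at chr3:115710433-115715072, both on the minus strand. Fpr2 shares 48 bp (3.70% of its exons) with Fpr3, and Cx3cr1 shares 78 bp (1.73%) with Gm33858 on the opposite strand; how reads in shared or near-identical sequence were counted is not given in the sources used here.

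The upstream sequences of the Fpr1-Fpr2 pair and of Ccr1 and Ccr3 are shown because the first pair stands head to head and the second lies in the chromosome 9 cluster with Ccr2, and because the members of each pair had unlike log2 fold changes in AMPK-KO TAMs. They are from RefSeq (GRCm38.p6), 5′ to 3′ on each gene's own strand and ending at its annotated start, from chr17:17883941-17884189 (minus), chr17:17887574-17887823 (plus), chr9:123968693-123968942 (minus) and chr9:124021721-124021970 (plus). Capitals mark GAGGAA, a core bound by PU.1-type ETS factors, of which PU.1 is central to the myeloid lineage, or TTCCTC, the same core on the opposite strand.
Fpr1: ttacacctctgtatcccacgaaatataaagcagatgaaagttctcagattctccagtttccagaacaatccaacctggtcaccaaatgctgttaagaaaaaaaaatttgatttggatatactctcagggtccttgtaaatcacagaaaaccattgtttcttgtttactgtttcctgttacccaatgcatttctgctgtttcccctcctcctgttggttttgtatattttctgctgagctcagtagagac
Fpr2: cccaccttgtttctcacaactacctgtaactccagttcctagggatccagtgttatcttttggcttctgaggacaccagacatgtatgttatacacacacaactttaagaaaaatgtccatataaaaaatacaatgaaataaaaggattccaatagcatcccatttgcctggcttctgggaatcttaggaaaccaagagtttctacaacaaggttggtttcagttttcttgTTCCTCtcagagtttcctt
Ccr1: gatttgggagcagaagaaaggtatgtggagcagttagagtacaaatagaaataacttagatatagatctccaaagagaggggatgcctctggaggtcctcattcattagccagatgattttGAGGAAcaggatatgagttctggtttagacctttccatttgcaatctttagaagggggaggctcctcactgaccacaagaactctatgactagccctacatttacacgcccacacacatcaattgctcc
Ccr3: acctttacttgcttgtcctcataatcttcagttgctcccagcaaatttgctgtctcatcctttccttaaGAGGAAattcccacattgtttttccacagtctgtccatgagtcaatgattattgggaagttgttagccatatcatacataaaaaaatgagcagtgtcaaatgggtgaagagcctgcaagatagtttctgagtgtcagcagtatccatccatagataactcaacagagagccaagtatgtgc
The RefSeq table held 10 windows of 250 bases before a start for 8 of the receptors (3 windows for Ccrl2), of which the Cx3cr1 window and parts of the Ccr2 and Ccrl2 windows lie in annotated exons. GAGGAA, on either strand, was in 3 of the 10 windows, against 23.3% of all 32851 windows of that length. The match began 129 bases before the start in Ccr1, 181 before it in Ccr3 and 19 before it in Fpr2 (on the opposite strand), and no match lay in the Fpr1 window. TATAAA, on either strand, was in 3 of the 10 windows (Cxcr4, Fpr1 and Fpr2) and in 12.4% of all windows. CACCC, the Kruppel-like core, was in 5 of the 10 and 52.0% of all, the hypoxia-response core ACGTG in 3 of the 10 (all of Ccrl2, 2 of whose windows largely overlap) and 16.6%, and the AP-1 motif TGACTCA in 1 of the 10 (Ccr3) and 4.46%. These are matches of letters, not measured binding.

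Genes were called at a Benjamini-Hochberg adjusted p under 0.05 in edgeR's quasi-likelihood test over all genes tested in the table, and a log2 fold change beyond 1 in size is stated separately. The first comparison asked how TAMs differ between early-stage and late-stage tumors. All 9 receptors were called: 8 were lower and 1, Cx3cr1, was higher in late-stage TAMs, and the early-stage and late-stage values did not overlap for any of them. Over the 17630 genes tested, 9.18% were called (4.31% higher and 4.88% lower) and 31.2% had groups that did not overlap. Ccr1, Ccr2, Fpr1 and Cx3cr1 also passed the fold rule, which 1.87% of all genes did. The median log2 fold change was -0.63 over the receptors and 0.0027 over all genes. Because the receptors were chosen with earlier results known, these shares and medians describe them and do not test the family. In bulk samples, fewer cells of a type and less RNA per cell cannot be told apart.

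**Figure D1:**
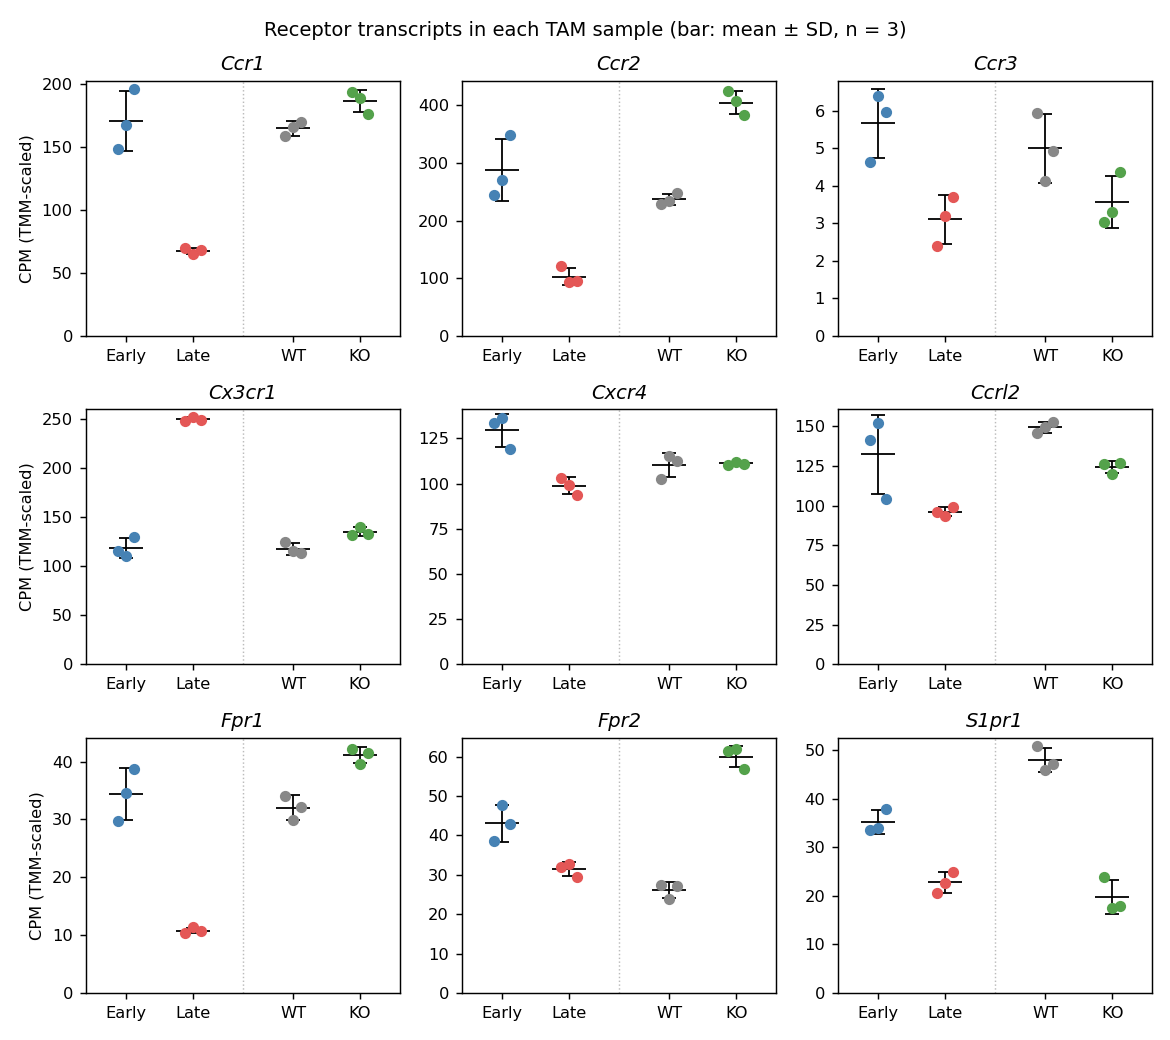
Each panel plots the CPM (TMM-scaled) of 1 receptor in the 12 samples, with points for samples and bars for the mean ± SD of 3; Early and Late come from one count table, WT and KO (AMPK-KO) from the other, so heights are read within each pair. Cx3cr1 rises from 110 to 130 CPM in early-stage to 248 to 252 CPM in late-stage TAMs while the other 8 receptors sit lower in late-stage TAMs, and Fpr2 is higher and S1pr1 lower in every AMPK-KO sample than in any WT sample.

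Among the inflammatory chemokine receptors, Ccr2 encodes the receptor for CCL2, CCL7 and CCL12. It was at 244, 270 and 348 CPM in early-stage TAMs and at 121, 92.9 and 95.5 CPM in late-stage TAMs. Every late-stage sample was at under the lowest early-stage value, and mean CPM was 2.79-fold lower (log2 fold change -1.48 ± 0.14 SE, adjusted p = 2.73e-04). Ccr1, a receptor for CCL3, CCL5 and related chemokines, was at 149, 168 and 196 CPM in early-stage and 70.0, 64.9 and 68.4 CPM in late-stage TAMs. The late-stage samples lay within a narrow band below all early-stage samples (log2 fold change -1.33 ± 0.10, adjusted p = 6.55e-05). Ccr3, best known as the eotaxin receptor of eosinophils, was near the bottom of the range at 4.64, 6.40 and 5.96 CPM in early-stage and 2.40, 3.21 and 3.70 CPM in late-stage TAMs. It was called lower (log2 fold change -0.87 ± 0.21, adjusted p = 0.0319), and the call held without Early replicate 1 (adjusted p = 0.0178) but not without any other sample: the adjusted p was 0.134 without Early replicate 2, 0.0600 without Early replicate 3, 0.104 without Late replicate 1, 0.105 without Late replicate 2 and 0.0550 without Late replicate 3.

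Cx3cr1, the fractalkine receptor gene, moved the other way. It was at 115, 110 and 130 CPM in early-stage and 248, 252 and 249 CPM in late-stage TAMs. The late-stage values were tightly grouped and 2.11-fold higher in mean (log2 fold change 1.07 ± 0.08, adjusted p = 4.79e-05). The log2 ratio of Ccr2 to Cx3cr1 within a sample, on the CPM scale without length correction, was 1.08, 1.30 and 1.42 in early-stage and -1.04, -1.44 and -1.38 in late-stage TAMs. Ccr2 thus had 2.12 to 2.68 times the CPM of Cx3cr1 in early-stage samples and 0.369 to 0.487 times in late-stage samples. The Ccr1 to Ccr3 log2 ratio, of a pair that both fell, ran from 4.71 to 5.04 in early-stage and from 4.21 to 4.86 in late-stage TAMs, and these ranges overlapped.

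Cxcr4, whose product binds CXCL12 and retains cells in the marrow and in perivascular niches, was at 133, 136 and 119 CPM in early-stage and 103, 99.4 and 94.0 CPM in late-stage TAMs. The groups did not overlap, but the fall was small (log2 fold change -0.39 ± 0.08, adjusted p = 0.0141), and the adjusted p was 0.0834 without Early replicate 2, 0.0766 without Late replicate 2 and 0.0917 without Late replicate 3. Ccrl2 encodes an atypical receptor that holds chemerin at the cell surface without driving migration. It was at 141, 152 and 104 CPM in early-stage and 96.0, 93.7 and 99.2 CPM in late-stage TAMs. Early replicate 3 was close to the late-stage samples, and the call (log2 fold change -0.46 ± 0.12, adjusted p = 0.0476) was just past the threshold: the adjusted p was 0.0695 without Early replicate 1, 0.180 without Early replicate 2, 0.154 without Late replicate 1, 0.169 without Late replicate 2 and 0.133 without Late replicate 3.

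The formyl peptide receptor genes fell by unequal amounts. Fpr1 was at 29.8, 34.6 and 38.7 CPM in early-stage and 10.3, 11.3 and 10.7 CPM in late-stage TAMs, and no receptor of the 9 had a lower log2 fold change (-1.67 ± 0.12, adjusted p = 4.26e-05). Fpr2, the head-to-head neighbor, was at 38.5, 47.8 and 43.0 CPM in early-stage and 32.0, 32.9 and 29.6 CPM in late-stage TAMs. The Fpr2 groups were separate but closer (log2 fold change -0.45 ± 0.10, adjusted p = 0.0225), and the adjusted p was 0.108 without Early replicate 2, 0.0791 without Late replicate 1, 0.0727 without Late replicate 2 and 0.112 without Late replicate 3. The Fpr1 to Fpr2 log2 ratio was -0.37, -0.47 and -0.15 in early-stage and -1.63, -1.54 and -1.47 in late-stage TAMs, so the ranges were far apart.

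S1pr1 was at 33.7, 33.9 and 38.0 CPM in early-stage and 20.7, 22.7 and 25.0 CPM in late-stage TAMs. It was 1.54-fold lower in mean in late-stage TAMs, with no overlap (log2 fold change -0.63 ± 0.10, adjusted p = 0.00530). Of the 9 receptors, Ccr1, Ccr2, Cx3cr1, Fpr1 and S1pr1 kept an adjusted p under 0.05 in every alternative that used one. The count of receptors called lower was 4 without Early replicate 2, 4 without Late replicate 2, 4 without Late replicate 3 and 5 without Late replicate 1.

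The classical monocyte markers moved with these receptors. Of the 8 listed, 7 were lower in late-stage TAMs, and their summed level was 1072 to 1306 CPM in early-stage and 432 to 466 CPM in late-stage samples. Ly6c2, a gene for the Ly6C antigen, on whose gate the sources differ, was at 31.7, 30.0 and 28.6 CPM in early-stage and 6.83, 8.88 and 9.46 CPM in late-stage TAMs. The nonclassical list had 2 of 7 higher and 2 lower (498 to 562 CPM against 570 to 600.02 CPM), and the macrophage list 1 of 12 higher and 1 lower (12567 to 16419 against 15864 to 15953 CPM). Of 6 neutrophil genes tested, 2, S100a8 and S100a9, were lower (121 to 128 against 105 to 110 CPM for the summed list). Csf3r (means of 76.9 CPM in early-stage and 69.6 CPM in late-stage TAMs) and Mmp8 (44.4 and 35.8 CPM), not called, made up most of that sum. Of 3 eosinophil genes tested 1, Ear2, was lower (23.0 to 26.3 against 8.39 to 13.9 CPM for the summed list), with Epx at 0 in these 6 samples. The NK cell list had 6 of 7 lower (124 to 140 against 62.1 to 76.7 CPM). Of the others, T cell markers had 4 of 9 higher, B cell markers 3 of 6 higher, dendritic cell markers 2 of 8 higher and 1 lower, endothelial markers 1 of 8 lower, fibroblast markers 3 of 6 lower and melanoma markers 5 of 7 lower. Of 10 basophil and mast cell markers only 3 had enough counts to be tested, with 0 called by edgeR (0 also at an unadjusted p under 0.05, 0 by the adjusted p of DESeq2 and 2 higher by its unadjusted p). Mcpt8, not tested, had 0 counts in each early-stage sample and 15, 11 and 8 in the late-stage samples. The part of these cells in the receptor differences was not tested.

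The ligands of these receptors were also lower where called. Of 21 listed ligand genes, 17 were tested, 10 were lower and 0 were higher in late-stage TAMs by edgeR (0 higher also at an unadjusted p under 0.05 and 0 by DESeq2), with a median log2 fold change of -0.61. By edgeR 58.8% were called, against 9.18% of all genes. The lists were chosen with earlier results known, so such shares are descriptions. Saa3, a serum amyloid A gene, fell from a mean of 127 to 4.61 CPM (log2 fold change -4.78 ± 0.23, adjusted p = 6.34e-06). Ccl6 (-1.33 ± 0.07), Ccl9 (-1.12 ± 0.07) and Ccl7 (-0.56 ± 0.07) fell as well. Of 43 other chemotactic receptor genes, 31 were tested, with 3 higher and 6 lower (29% called, against 9.18% of all genes). The leukotriene B4 receptor gene Ltb4r1 (log2 fold change -1.14 ± 0.12), the platelet-activating factor receptor gene Ptafr (-1.07 ± 0.09), the chemerin receptor gene Cmklr1 (-0.52 ± 0.08) and the CXCL12 scavenger gene Ackr3 (-1.21 ± 0.26) were among those lower. The higher count was 0 without Late replicate 2, 0 without Late replicate 3 and 1 without Early replicate 2, and the lower count was 3 without each of these. In the signaling list, 38 genes were tested, with 8 higher and 3 lower (28.9% called, against 9.18% of all genes). Rgs18, which limits G-protein signals, fell by 1.62 on the log2 scale, Grk5, a receptor kinase, by 0.75, and Fgr, a Src-family kinase, by 0.59. The Rac activator gene Prex1 rose by 0.44. The higher count was 13 without Early replicate 1, 5 without Early replicate 2 and 4 without any Late replicate in turn. Of 20 tested genes of sphingosine-1-phosphate metabolism and control, Cers6, a ceramide synthase gene, was lower (log2 fold change -0.41 ± 0.11, adjusted p = 0.0493) and 0 were higher by edgeR, with 2 higher at an unadjusted p under 0.05 and 0 by the adjusted p of DESeq2. By edgeR 5% of this list were called, against 9.18% of all genes. The counts were 2 lower and 3 higher without Early replicate 1, and 0 lower without each of the other 5 samples in turn.

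The second comparison asked how loss of AMPK in myeloid cells relates to TAM transcripts. Of the 9 receptors, 5 were higher (Fpr2, Ccr2, Fpr1, Cx3cr1 and Ccr1) and 2 lower (S1pr1 and Ccrl2) in AMPK-KO TAMs, and Ccr3 and Cxcr4 were not called. Over the 17532 genes tested, 21.1% were called (11.3% higher and 9.78% lower). The groups did not overlap for 7 receptors, against 37.2% of all genes. Fpr2 and S1pr1 passed the fold rule, as did 3.34% of all genes. The median log2 fold change was 0.18 over the receptors and -0.0037 over all genes. The same limit on how the receptors were chosen applies here.

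Fpr2 was at 27.4, 23.8 and 27.1 CPM in WT and 61.4, 61.9 and 56.9 CPM in AMPK-KO TAMs. Every AMPK-KO sample was above every WT sample, and mean CPM was 2.30-fold higher (log2 fold change 1.20 ± 0.07, adjusted p = 2.13e-06). Fpr1 was at 34.1, 29.9 and 32.1 CPM in WT and 42.2, 39.5 and 41.5 CPM in AMPK-KO TAMs. The Fpr1 groups were also separate, with a smaller rise (log2 fold change 0.36 ± 0.07, adjusted p = 0.00486). The Fpr1 to Fpr2 log2 ratio was 0.32, 0.33 and 0.25 in WT and -0.54, -0.65 and -0.45 in AMPK-KO TAMs, so Fpr1 had more CPM than Fpr2 in each WT sample and less in each AMPK-KO sample. In the other experiment this ratio was negative in all samples and lower still in late-stage TAMs. Of the remaining genes of the family, Fpr3 had too few counts to be tested and Fpr-rs4 had no count in any of the 12 samples.

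**Figure D2:**
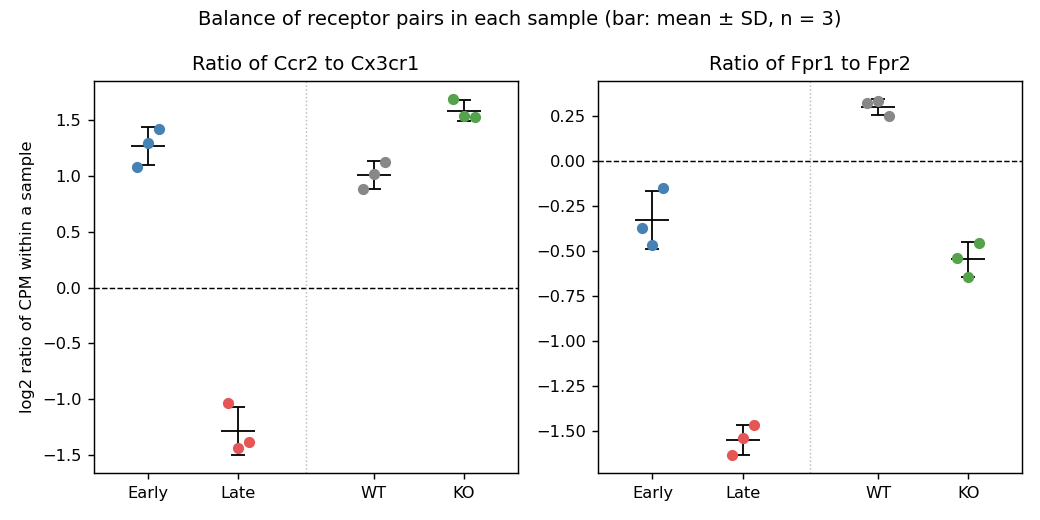
The log2 ratio of CPM of 2 receptors within each sample is plotted for Ccr2 to Cx3cr1 (left) and Fpr1 to Fpr2 (right), with points for samples and bars for the mean ± SD of 3; the dashed line marks equal CPM, which is not corrected for length. The Ccr2 to Cx3cr1 ratio crosses that line between early-stage (1.08 to 1.42) and late-stage samples (-1.44 to -1.04), and the Fpr1 to Fpr2 ratio crosses it between WT (0.25 to 0.33) and AMPK-KO samples (-0.65 to -0.45).

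Ccr2 was at 229, 235 and 247 CPM in WT and 424, 407 and 383 CPM in AMPK-KO TAMs. The groups were far apart relative to their spread, with a 1.71-fold higher mean (log2 fold change 0.77 ± 0.05, adjusted p = 4.32e-06). Ccr1 was at 159, 166 and 171 CPM in WT and 194, 189 and 177 CPM in AMPK-KO TAMs. The groups did not overlap, but the difference was small (log2 fold change 0.18 ± 0.05, adjusted p = 0.0409), and the adjusted p was 0.156 without AMPK-KO replicate 1, 0.145 without AMPK-KO replicate 2, 0.0843 without WT replicate 1, 0.0725 without WT replicate 2 and 0.0833 without WT replicate 3. Cx3cr1 was at 125, 116 and 113 CPM in WT and 131, 140 and 133 CPM in AMPK-KO TAMs. It too was called higher by a small margin (log2 fold change 0.19 ± 0.06, adjusted p = 0.0315), with adjusted p-values of 0.0604, 0.143 and 0.0605 without AMPK-KO replicates 1, 2 and 3, and 0.0861 and 0.162 without WT replicates 2 and 3. The Ccr2 to Cx3cr1 log2 ratio was 0.88, 1.02 and 1.13 in WT and 1.69, 1.54 and 1.53 in AMPK-KO TAMs, with no overlap.

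Ccr3 and Cxcr4 were not called. Ccr3 was at 5.94, 4.13 and 4.92 CPM in WT and 3.05, 3.30 and 4.37 CPM in AMPK-KO TAMs, and the groups overlapped. Its log2 fold change was -0.48 (95% interval -0.91 to -0.05), with an adjusted p of 0.109 by edgeR. The Ccr1 to Ccr3 log2 ratio was 4.74, 5.33 and 5.12 in WT and 5.99, 5.84 and 5.34 in AMPK-KO TAMs, where the lowest AMPK-KO value was just above the highest WT value. Cxcr4 was at 103, 115 and 113 CPM in WT and 111, 112 and 111 CPM in AMPK-KO TAMs, so its AMPK-KO values lay inside the WT range. The 95% interval of its log2 fold change (0.01) ran from -0.11 to 0.14.

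S1pr1 had the opposite sign to Fpr2 and Ccr2. It was at 50.8, 46.0 and 47.2 CPM in WT and 23.8, 17.6 and 17.8 CPM in AMPK-KO TAMs. All AMPK-KO samples were far below WT, and mean CPM was 2.43-fold lower (log2 fold change -1.28 ± 0.11, adjusted p = 2.69e-05). Ccrl2 was at 146, 150 and 153 CPM in WT and 126, 120 and 127 CPM in AMPK-KO TAMs. The Ccrl2 groups did not overlap, with a modest fall (log2 fold change -0.26 ± 0.05, adjusted p = 0.00352). Ccr2, Fpr1, Fpr2, S1pr1 and Ccrl2 kept an adjusted p under 0.05 in every alternative that used one, and the count of receptors called higher was 3 without AMPK-KO replicate 1, AMPK-KO replicate 2, WT replicate 2 or WT replicate 3.

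**Figure D3:**
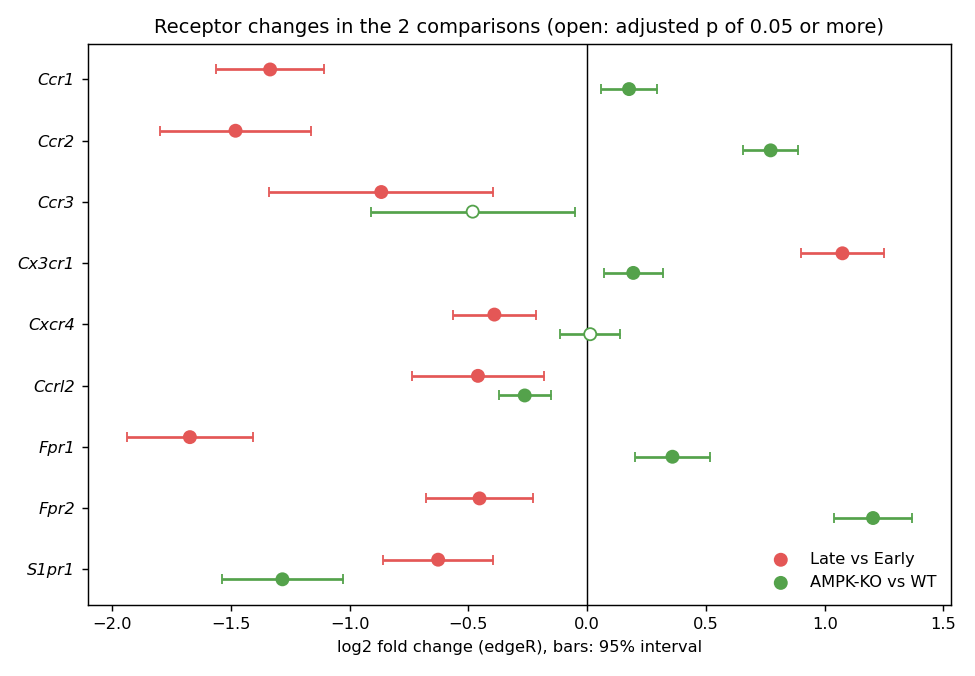
Points give the edgeR log2 fold change of each receptor in the 2 comparisons and bars the 95% interval; filled points have an adjusted p under 0.05. Ccr1, Ccr2, Fpr1 and Fpr2 lie left of zero for Late against Early and right of zero for AMPK-KO against WT, S1pr1 and Ccrl2 lie left in both, and the interval of Cxcr4 spans zero for AMPK-KO against WT.

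Set side by side, 7 receptors were called in both comparisons, which use separate samples. Of these, 4 (Ccr1, Ccr2, Fpr1 and Fpr2) were lower in late-stage and higher in AMPK-KO TAMs, 2 (Ccrl2 and S1pr1) were lower in both, and Cx3cr1 was higher in both. The share of all genes called in both comparisons is not given here, so these counts only describe the receptors. The difference between the comparisons was not tested.

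In AMPK-KO TAMs the classical monocyte list was split, with 4 of 8 higher and 1 lower. Its summed level was 1391 to 1426 CPM in WT and 1410 to 1446 CPM in AMPK-KO. F13a1, the gene called lower, made up most of that sum (means of 915 CPM in WT and 675 CPM in AMPK-KO). The genes called higher were Plac8 (means of 180 and 310 CPM), Ms4a4c (188 and 284 CPM), Hp (13.6 and 24.6 CPM) and Ly6c2. Ly6c2 was at 17.5, 17.7 and 17.5 CPM in WT and 37.1, 39.8 and 43.6 CPM in AMPK-KO TAMs. The nonclassical list had 5 of 7 higher (366 to 377 against 618 to 643 CPM), and the macrophage list 2 of 12 higher and 3 lower (18454 to 20602 against 17039 to 17684 CPM). Of 7 neutrophil genes tested, 4 were higher (112 to 119 against 184 to 186 CPM), with Ly6g and Ngp at 0 in these 6 samples. Csf3r (means of 96.5 CPM in WT and 154 CPM in AMPK-KO) and Mmp8 (16.7 and 24.3 CPM) made up most of that sum. S100a8 and S100a9 were at means of 1.05 and 0.697 CPM in WT and 2.10 and 2.47 CPM in AMPK-KO. Of 8 eosinophil genes listed, 2 were tested, Ear2 and Siglecf, and both were higher (14.8 to 17.0 against 44.2 to 47.2 CPM for the summed list). Ear2 made up most of that sum (means of 15.3 CPM in WT and 43.6 CPM in AMPK-KO). The other listed genes, among them Epx and Prg2, had too few counts to be tested. NK cell markers had 7 of 7 higher (49.8 to 59.5 against 135 to 141 CPM) and T cell markers 8 of 9 higher (125 to 140 against 223 to 226 CPM). Fibroblast markers had 6 of 6 higher, endothelial markers 2 of 7 tested higher and 1 lower, dendritic cell markers 6 of 8 higher and 1 lower, B cell markers 1 of 6 higher and 5 lower, basophil and mast cell markers 2 of 5 tested higher and melanoma markers 6 of 7 lower. The part of these cells in the receptor differences was not tested.

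Ligand genes went mostly down as Ccr2 and Fpr2 went up. Of 17 tested, 9 were lower and 2 higher in AMPK-KO TAMs (median log2 fold change -0.36; 64.7% called, against 21.1% of all genes). Ccl2, the main CCR2 ligand, fell from a mean of 824 to 453 CPM (log2 fold change -0.86 ± 0.07, adjusted p = 1.20e-05). Ccl3 (-0.78 ± 0.08) and the eotaxin gene Ccl24 (-1.41 ± 0.12) fell, whereas Ccl5 rose from a mean of 34.2 to 90.8 CPM (1.41 ± 0.11). The other CCR2 ligand genes, taken up here for their receptor after their values were seen, were Ccl7 (log2 fold change -0.54 ± 0.11, adjusted p = 0.00494) and Ccl12 (-0.96 ± 0.12, adjusted p = 3.02e-04), so all 3 were lower while Ccr2 was higher. Anxa1, an FPR2 ligand gene also taken up after its values were seen, fell by 0.46 on the log2 scale (SE 0.05, adjusted p = 1.44e-04) while Fpr2 rose, and the log2 fold change of Saa3 was 0.25 ± 0.13 (adjusted p = 0.219).

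Of the other chemotactic receptors, 32 were tested, 9 were higher and 6 lower (46.9% called, against 21.1% of all genes). Cxcr6, the CXCL16 receptor gene, rose from a mean of 7.26 to 23.8 CPM (log2 fold change 1.72 ± 0.10, adjusted p = 1.55e-06). The complement C5a receptor gene C5ar1 (-0.69 ± 0.04) and the oxysterol receptor gene Gpr183 (-0.82 ± 0.08) fell. In the signaling list, 19 of 38 tested were higher and 2 lower (55.3% called, against 21.1% of all genes). The receptor kinase gene Grk3 (log2 fold change 1.03 ± 0.08) and the kinase genes Fgr (0.58 ± 0.05) and Ptk2b (0.50 ± 0.05) rose, and Rgs1 (-0.50 ± 0.05) fell. The lower count was 4 without WT replicate 1.

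Of genes of sphingosine-1-phosphate metabolism and control, 21 were tested, with 4 higher and 3 lower (33.3% called, against 21.1% of all genes). Cd69, whose product removes S1PR1 from the cell surface, rose from a mean of 12.6 to 18.0 CPM (log2 fold change 0.51 ± 0.09, adjusted p = 0.00331). Cers6 (0.50 ± 0.09), the ceramidase genes Asah1 (0.21 ± 0.04) and Acer3 (0.28 ± 0.07) rose too. Klf2, a transcription factor gene known to drive S1pr1 in lymphocytes and named here after its values were seen, fell by 0.18 on the log2 scale (SE 0.05, adjusted p = 0.0276). S1pr2, named on the same terms, was at 79.9, 77.5 and 75.3 CPM in WT and 78.0, 79.8 and 74.4 CPM in AMPK-KO TAMs. The 95% interval of its log2 fold change ran from -0.12 to 0.12. The part of Cd69 and Klf2 in the S1pr1 difference was not tested. The lower count of this list was 0 without AMPK-KO replicate 2, 0 without WT replicate 3, 1 without AMPK-KO replicate 1 and 1 without WT replicate 2.

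The genes along the Ccr2 stretch of chromosome 9 were not all called in either comparison. Cxcr6, which starts 296 kb from Ccr2, was at 11.4, 10.2 and 14.3 CPM in early-stage and 9.63, 8.68 and 9.89 CPM in late-stage TAMs. Its groups did not overlap, but it was not called (log2 fold change -0.35 ± 0.15, adjusted p = 0.175), whereas Ccr1, Ccr3 and Ccr2 were called lower. In AMPK-KO TAMs the log2 fold changes in chromosomal order were 1.72 for Cxcr6, 0.18 for Ccr1, -0.48 for Ccr3 (not called) and 0.77 for Ccr2.

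**Figure D4:**
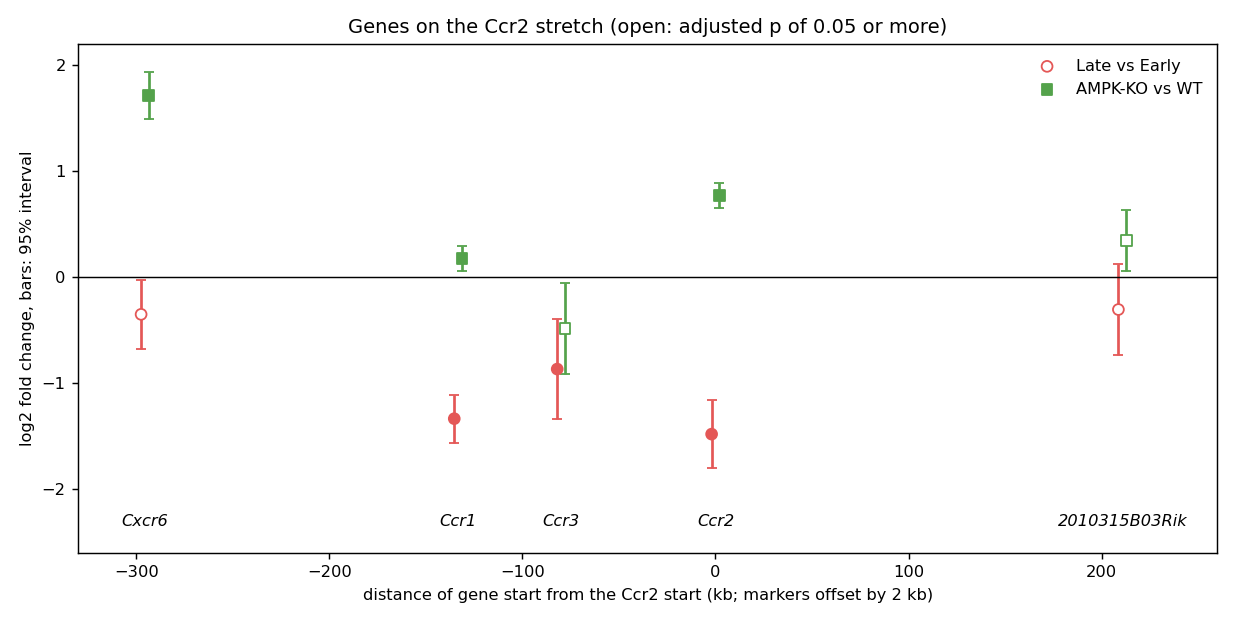
The log2 fold change (points) and its 95% interval (bars) are plotted for Cxcr6, Ccr1, Ccr3, Ccr2 and 2010315B03Rik against the distance of their starts from that of Ccr2 in kb, with filled points for an adjusted p under 0.05; other genes of the stretch are not shown. Ccr1, Ccr3 and Ccr2 are filled and below zero for Late against Early while Cxcr6 is open, and Cxcr6, Ccr1 and Ccr2 are filled and above zero for AMPK-KO against WT.

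Levels between receptors were compared as CPM per kb of exon, within each experiment. In early-stage TAMs the order ran from Cxcr4 (71.7 ± 5.05, SD, n = 3) through Ccr1 (60.3 ± 8.41), Ccrl2 (51.0 ± 9.60), Ccr2 (42.5 ± 7.99), Fpr2 (33.2 ± 3.59), Cx3cr1 (26.3 ± 2.29), Fpr1 (26.0 ± 3.38) and S1pr1 (11.6 ± 0.794) to Ccr3 (1.73 ± 0.280). Each of the neighbors from Cxcr4 down to Fpr2 overlapped, as did Cx3cr1 and Fpr1. In late-stage TAMs Cx3cr1 came first (55.4 ± 0.496), overlapping Cxcr4 (54.7 ± 2.57), followed by Ccrl2 (37.1 ± 1.07), Fpr2 (24.3 ± 1.32), Ccr1 (23.9 ± 0.906), Ccr2 (15.2 ± 2.26), Fpr1 (8.14 ± 0.375), S1pr1 (7.48 ± 0.710) and Ccr3 (0.949 ± 0.201). Without Late replicate 3 the mean of Cxcr4 was above that of Cx3cr1, and without Early replicate 1 the early-stage mean of Fpr1 was above that of Cx3cr1. In late-stage TAMs Fpr2 and Ccr1, and Fpr1 and S1pr1, were not separated.

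In WT TAMs Cxcr4 (60.9 ± 3.73), Ccr1 (58.3 ± 2.07) and Ccrl2 (57.6 ± 1.34) led without separation, ahead of Ccr2 (35.1 ± 1.35), Cx3cr1 (26.2 ± 1.35), Fpr1 (24.2 ± 1.61), Fpr2 (20.1 ± 1.53), S1pr1 (15.8 ± 0.817) and Ccr3 (1.53 ± 0.278). Cx3cr1 and Fpr1 overlapped there. In AMPK-KO TAMs the order was Ccr1 (65.9 ± 3.19), Cxcr4 (61.5 ± 0.418), Ccr2 (59.9 ± 3.02), Ccrl2 (48.0 ± 1.45), Fpr2 (46.3 ± 2.14), Fpr1 (31.0 ± 1.04), Cx3cr1 (29.9 ± 1.03), S1pr1 (6.48 ± 1.17) and Ccr3 (1.09 ± 0.214). Cxcr4 and Ccr2, Ccrl2 and Fpr2, and Fpr1 and Cx3cr1 overlapped. Ccr3 was last in all 4 groups and S1pr1 next to last.

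**Figure D5:**
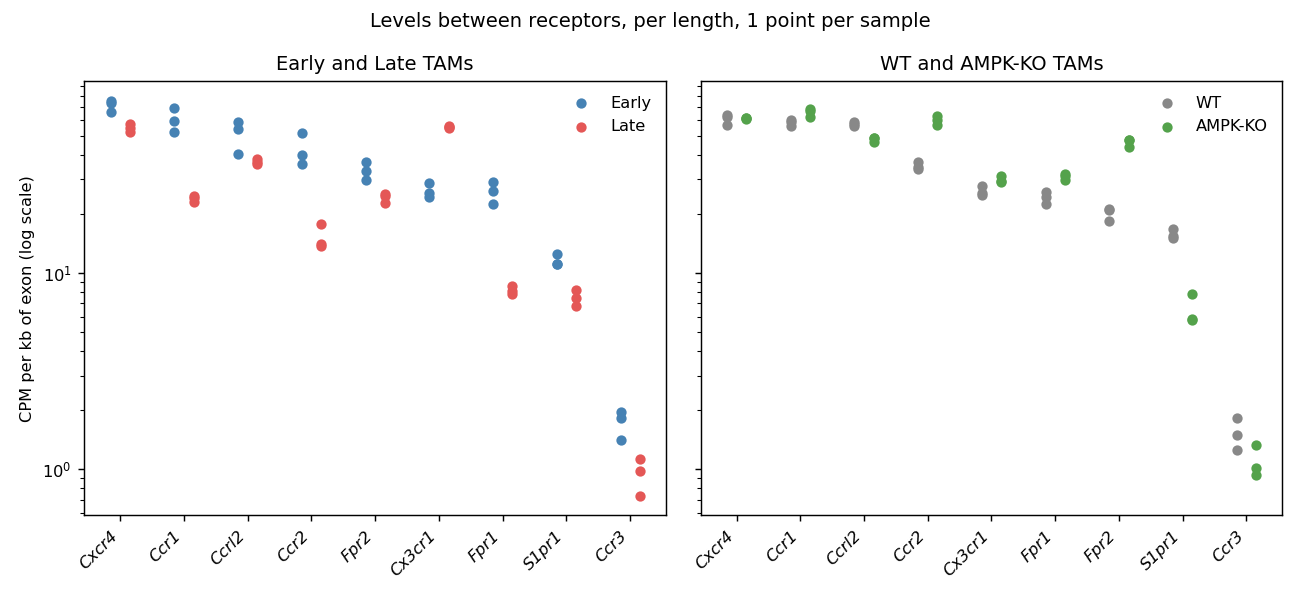
The CPM per kb of exon of the 9 receptors is plotted on a log axis, 1 point per sample, with receptors ordered by their mean in Early (left) and in WT (right). Ccr3 is lowest throughout at 0.949 to 1.73 on average, Cx3cr1 is level with Cxcr4 in the late-stage samples, and Fpr2 and Ccr2 sit higher and S1pr1 lower in AMPK-KO than in WT.

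Over the 12 samples, with each table centered on its own mean log2 CPM, Ccr1 and Fpr1 had a Pearson r of 0.984, Ccr2 and Fpr1 of 0.942 and Ccr1 and Ccr2 of 0.936. Cx3cr1 ran against Cxcr4 (r = -0.930) and Ccr1 (r = -0.910), and S1pr1 against Fpr2 (r = -0.654). These are descriptions over samples that share groups and libraries. Among 16812 genes tested in both tables, the pair most like each receptor was Ms4a4a (0.995) and Fbxl5 (0.990) for Ccr1, Ifit1bl1 and Ms4a8a (both 0.988) for Ccr2, Krr1 (0.919) and Steap2 (0.917) for Ccr3, Cadm1 (0.992) and Bub1b (0.987) for Cx3cr1, Tppp3 (0.968) and Ccl8 (0.950) for Cxcr4, and Ier3 (0.961) and Ubap1 (0.959) for Ccrl2. For Fpr1 they were Cass4 (0.995) and Ms4a4a (0.988), for Fpr2 Inhba (0.989) and Ciita (0.981), and for S1pr1 Gm47761 (0.994) and Lrrc27 (0.978).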

How the data were processed

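Reads were aligned by the authors using HISAT2 and assigned to genes by featureCounts, and the deposited values are raw counts, 1 table per experiment. Versions, strand setting and handling of multiply mapped reads are not given in the sources used here. The labels name mm10 and GRCm38 and the methods write GRCh38; 54349 of 55401 identifiers match GENCODE M21 (GRCm38) with their version, and positions come from it.

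Each table was fitted on its own with edgeR 4.0.16 in R 4.3.3 (filterByExpr, TMM, quasi-likelihood test, no covariates), with Benjamini-Hochberg adjustment over all genes tested. The script was tested on simulated data. CPM are TMM-scaled; log2 CPM for correlations used a prior count of 2. As alternatives, each sample was left out, the replicate number was used as a block, 2 other count filters and upper-quartile or RLE factors were tried, and DESeq2 1.42.0 was run with its adjusted or unadjusted p. Named genes were all receptors, Prkaa1, up to 4 called genes per list and comparison with the smallest adjusted p, and the 2 genes most correlated with each receptor. The receptors and lists were chosen with earlier results of these data known. No 2 samples of the same group agreed within sampling noise, and pairs across groups were not checked. With 3 samples a group, no sample was tested for standing apart. Some results are not reported here.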

Additional observations from a re-analysis of the deposited data

How the results depend on the processing

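Every receptor kept its sign in both comparisons under every alternative except Cxcr4 in AMPK-KO against WT, whose log2 fold change was -0.0013 with upper-quartile factors and ran from -0.04 (without WT replicate 1) to 0.05 with 1 sample left out. With no filter beyond 1 count, 5 receptors were called lower in late-stage TAMs and 3 higher in AMPK-KO TAMs; the adjusted p was 0.0827 for Ccr3, 0.123 for Ccrl2 and 0.0515 for Fpr2 in the first, and 0.0898 for Ccr1 and 0.0623 for Cx3cr1 in the second. With upper-quartile factors the adjusted p of Ccr1 in AMPK-KO against WT was 0.0521. By the unadjusted p of DESeq2, Ccr3 passed in AMPK-KO against WT the threshold of 0.05. The causes were not tested. With 1 sample left out at a time, receptors called lower in late-stage TAMs ranged from 4 to 7 and those higher in AMPK-KO TAMs from 3 to 4. For the lists in late-stage TAMs, other receptors ranged from 0 to 4 higher and 3 to 6 lower, signaling genes from 4 to 13 higher, and sphingosine-1-phosphate genes from 0 to 3 higher and 0 to 2 lower, with 2 lower by DESeq2. In AMPK-KO TAMs, sphingosine-1-phosphate genes ranged from 0 to 2 lower and signaling genes from 2 to 4 lower. The order of levels changed by 0 to 2 places in Early, Late and AMPK-KO. Over all genes, the calls in Late against Early ranged from 653 without Late replicate 2 to 2835 without Early replicate 1, with 936 without the filter, 2414 by DESeq2 and 4625 by its unadjusted p; those in AMPK-KO against WT were 3693, 4106 by DESeq2, and 5929 by its unadjusted p, and 2414 without WT replicate 3.

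Same-numbered samples had correlations of 0.013 to 0.026 in the stage experiment and -0.0039 to 0.042 in the AMPK experiment. With 3 samples a group, these values cannot decide whether same-numbered samples were paired. With the replicate number as a block, 1417 genes in place of 1619 were called in Late against Early and 3862 in place of 3693 in AMPK-KO against WT, the sphingosine-1-phosphate genes called lower in late-stage TAMs were 0, and the adjusted p was 0.0585 for Ccrl2 in the first comparison and 0.0535 for Ccr1 in the second. In the AMPK experiment replicates 1 and 3 correlated best with their own number and replicate 2 did not. In the stage experiment no replicate did. The lowest receptor count, 202 reads for Ccr3, gives the widest relative error of the 9, and 3 samples a group limit the precision of every fold change.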
